A study of Danio rerio with 12 samples.

Results

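Knockdown of Vgll4l was set directly against the joint knockdown of Yap and Taz in clusters of dorsal forerunner cells (DFCs) of the zebrafish. The comparison took 8 of the 12 libraries of the series by their labels, 4 of Vgll4l knockdown and 4 of Yap/Taz knockdown, and every gene that averaged 1 normalized count or more over the 12 libraries. These were 17609 of 31953 genes, while 9964 were at 0 in every library and 4380 lay below that mean. Embryos of the Tg(sox17:GFP) line received 4 ng of a Vgll4l morpholino, or 4 ng of a Yap and 4 ng of a Taz morpholino together, and the 4 control libraries, given only as a level beside the comparison, came from embryos with 8 ng of a standard morpholino. A morpholino is an antisense oligonucleotide that blocks the splicing or translation of its target. All embryos were injected at the 1-cell stage, so every tissue of the embryo received it and not the DFCs alone, and the groups differ in the amount injected. All groups share the transgene, in which sox17 regulatory sequence drives GFP in DFCs and endoderm. The cluster was dissected at 90% epiboly and 1 library was made from each. Nothing in the labels says which clusters came from separate clutches or days, so p-values measure only the spread between these libraries.

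DFCs are a small group of cells that travel ahead of the dorsal margin during gastrulation and then form Kupffer's vesicle, the ciliated organ that sets left-right asymmetry in fish. Their motile cilia depend on the transcription factor Foxj1a, and their identity on Sox32, Sox17 and the T-box factors. Yap and Taz are transcriptional coactivators that are held out of the nucleus by the Hippo kinases and act on DNA through Tead factors. Proteins of the Vgll4 family bind Tead through Tondu domains and can compete with Yap and Taz for it. The direct comparison addresses whether loss of the one cofactor and loss of the other pair leave the same RNA in these cells.

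The libraries held 8698990 to 11235726 reads assigned to genes after Vgll4l knockdown, 9071323 to 10774775 after Yap/Taz knockdown and 4487894 to 6148871 in control clusters. A normalized count is the reads of a gene divided by a size factor per library, so 1 read is worth 0.764 to 0.977 normalized counts in a Vgll4l library and 0.666 to 0.798 in a Yap/Taz library. Libraries of 1 knockdown were very much alike. Between 2 Yap/Taz libraries the typical gene varied 1.43 to 1.68 times as much as pure counting error would, between 2 Vgll4l libraries 1.58 to 8.70 times, and between a Vgll4l and a Yap/Taz library 251 to 316 times. Vgll4l replicate 2 stood apart from the other 3 Vgll4l libraries. It had 16615 genes above 0, against 13908 to 14179 in the others. Of 163 genes that were at 0 in the other 3 Vgll4l libraries, averaged 50 or more after Yap/Taz knockdown and under 5 in control clusters, 150 were above 0 in replicate 2, and their summed level there was 2.55% of the Yap/Taz level. Of 456 such genes with 50 or more on average in control clusters and under 5 after Yap/Taz knockdown, 335 were above 0 in replicate 2 at 1.42% of the control level. Low counts of replicate 2 that carry the Vgll4l mean are therefore given on their own below for some genes. For others they are given only among the flagged results, and not for every gene. A Vgll4l SD near or above its mean is to be read with that in mind.

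The RNA of the clusters differed widely between the knockdowns. The labels do not say whether the groups were prepared together, so the knockdown and any difference in preparation cannot be told apart. Of 17609 genes 11015 differed between them, which is 62.6%, and 5217 of these were higher (29.6%) and 5798 lower (32.9%) after Vgll4l knockdown. Counts of list members below are to be read against these shares. Members and lists were chosen with earlier results of these data known. A list that departs from these shares is therefore no independent evidence of a direction. The filter over 12 libraries also lets in genes with reads mainly in control clusters. With the same mean asked of the 8 knockdown libraries, 11212 of 15440 genes differed (72.6%), 5309 higher and 5903 lower. A gene counted as different at a Benjamini-Hochberg adjusted p under 0.05 by limma and a log2 fold change of 1 or more in size on the log2(normalized count + 1) scale, Vgll4l minus Yap/Taz. Higher and lower thus give the order of the knockdowns and not a change from control. For example, boc, casp6, cdh17, efhb and nphp4, named below, were higher after Vgll4l knockdown but averaged less there than in control clusters. The difference reached a log2 of 3 in 5478 genes and a log2 of 5 in 2177. In 75.3% of the genes the 4 libraries of one knockdown did not overlap the 4 of the other, with the Vgll4l libraries above in 36.4% and below in 38.9%. Genes picked below for the largest differences of a list had to show no overlap, so for them it adds no evidence. Similarity was tested on its own: in 4102 genes (23.3%) the 95% interval of the difference lay within a log2 of 1 on either side, and only such genes are called alike in what follows. Of these, 638 were at 0 in all 8 libraries and 2236 averaged 100 or more in both knockdowns. For 2492 genes neither statement could be made. The median log2 fold change over all genes was 0.00 with the deposited scaling. Scaling by the trimmed mean of M values (TMM) moved that median to 0.14. Genes with more reads moved further, such as cftr from 0.84 to 1.08 and slc35d1a from -1.21 to -0.98. Differences near the threshold are to be read against shifts of that size.

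**Figure D1:**
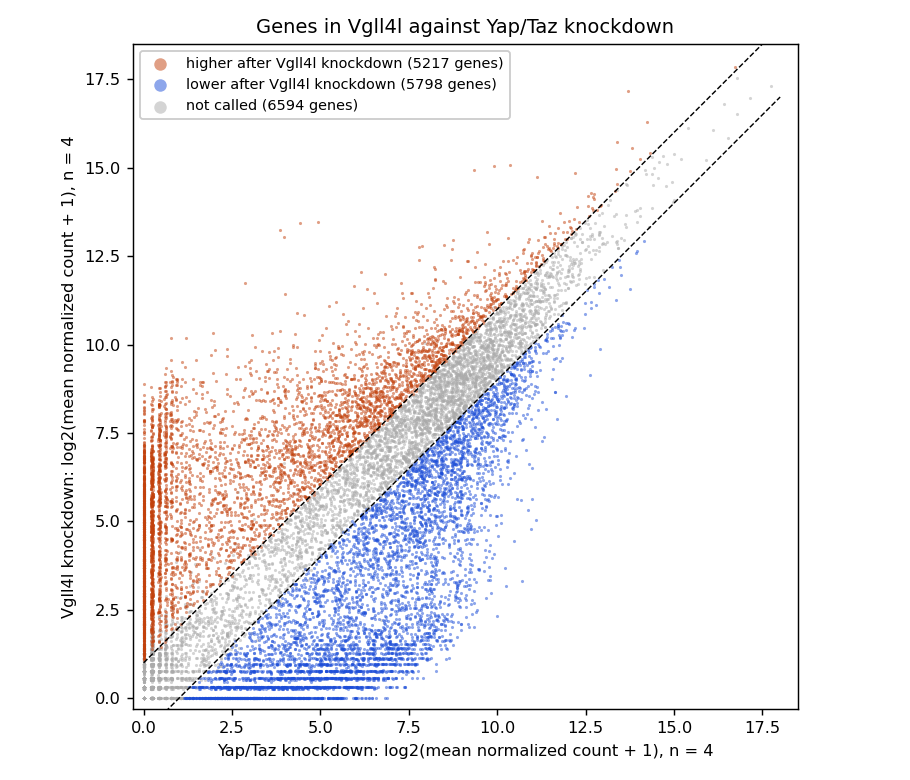
Mean normalized count of each of the 17609 genes after Vgll4l knockdown (vertical axis) and Yap/Taz knockdown (horizontal axis), both as log2(mean + 1) over 4 libraries. The 5217 genes higher and the 5798 genes lower after Vgll4l knockdown are coloured, the other genes are grey, and the dashed lines mark a difference of a log2 of 1. Many points lie along the axes, where a gene had almost no reads in one of the knockdowns.

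vgll4l (ENSDARG00000068409), the gene of the cofactor knocked down in the one group, had 1033, 1107, 1090.5 and 1016 normalized counts after Vgll4l knockdown, against 1574, 1677, 1615 and 1556 after Yap/Taz knockdown, with 6694 to 7266 in control clusters. Every Vgll4l library lay below every Yap/Taz library, but the log2 fold change of -0.60 (95% interval -0.68 to -0.51) lay within a log2 of 1. yap1 (ENSDARG00000068401) had 1409, 1368, 1547 and 1446 after Vgll4l knockdown, against 1802, 1797, 1738 and 1797 after Yap/Taz knockdown, a log2 fold change of -0.31 (-0.40 to -0.22), also within that limit. wwtr1, the gene of Taz, was low throughout, at 0.977 to 3.82 after Vgll4l knockdown, against 6.39 to 11.3 after Yap/Taz knockdown (log2 fold change -1.62, limma adjusted p = 0.0017), a call that was lost with a pseudocount of 10. A morpholino need not change the RNA of its target, so these levels do not measure the knockdowns. Tead factors are the DNA-binding partners of all 3 proteins, and of their genes tead1a and tead3b lay in opposite directions. tead1a (ENSDARG00000028159) had 1.53, 6.61, 0.977 and 0.922 normalized counts after Vgll4l knockdown, 125, 125, 118 and 123 in Yap/Taz clusters and 56.4 to 89.0 in control clusters, and was lower after Vgll4l knockdown by a wide gap (log2 fold change -5.40, limma adjusted p = 1.3e-05). tead3b (ENSDARG00000063649) had 54.4 ± 8.36 in Vgll4l and 19.5 ± 2.08 in Yap/Taz clusters (SD, n = 4 each) and was higher after Vgll4l knockdown (log2 fold change 1.43). tead3a was low throughout, at 6.17 ± 4.05 in Vgll4l and 3.67 ± 1.71 in Yap/Taz clusters. It was called neither different nor alike (95% interval -0.51 to 1.62). Of 24 tested genes of the Hippo kinases and their regulators 12 were lower (50%, against 32.9% of all genes) and 5 higher (20.8%, against 29.6%). Their median log2 fold change was -0.98, or -0.88 with genes at 0 in a whole knockdown set at the bound that 3 reads give. Among the lower ones was nf2a, which encodes the upstream activator Merlin, at 0.236 ± 0.472 after Vgll4l knockdown, against 55.9 ± 5.01 after Yap/Taz knockdown, and lats1, the kinase gene, at 32.0 ± 4.79 in Vgll4l and 198 ± 11.5 in Yap/Taz clusters. stk3, the gene of the kinase upstream of Lats, was higher at 630.2 ± 46.5 after Vgll4l knockdown, against 249 ± 19.1 after Yap/Taz knockdown. sav1, which encodes its scaffold, had 212 ± 10.8 in Vgll4l and 207 ± 11.0 in Yap/Taz clusters, an interval of -0.09 to 0.16. Of 21 genes known from other systems as Yap targets 7 were higher (33.3%, against 29.6% of all genes) and 4 lower (19.0%, against 32.9%) after Vgll4l knockdown. ankrd1a (ENSDARG00000075263), a classical target, had 0, 4.72, 0 and 0 normalized counts after Vgll4l knockdown, against 58.0, 51.9, 59.9 and 66.4 after Yap/Taz knockdown, while cyr61 (ENSDARG00000023062), another one, had 84.1, 56.6, 92.8 and 91.2 after Vgll4l knockdown, against 0, 0.798, 0 and 0 after Yap/Taz knockdown. The genes thus lay in opposite directions with no overlap of libraries (log2 fold changes -5.27 and 6.12, limma adjusted p = 8.4e-05 and 4.4e-07). cyr61 was at 0 in every control library as well, so its high level was on the Vgll4l side. cyr61l1, on the same list, was alike at 200 ± 21.7 in Vgll4l and 263 ± 21.8 in Yap/Taz clusters (-0.61 to -0.18).

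Of 15 tested genes on the list of forerunner transcription factors 6 were alike in the knockdowns, among them sox32, sox17, foxj1a, ta and rfx2. After Vgll4l knockdown 5 were higher (33.3%, against 29.6% of all genes) and 2 lower (13.3%, against 32.9%). Not every listed gene was expressed in control clusters, as given for sox18 and mixl1 below. sox32 (ENSDARG00000100591), which encodes the Sox factor needed for DFC and endoderm formation, had 12878, 12497, 13412 and 13021 normalized counts after Vgll4l knockdown, against 12805, 12984, 12655 and 13092 after Yap/Taz knockdown. The libraries of the knockdowns overlapped and the log2 fold change was 0.01 (95% interval -0.05 to 0.06). sox17 (ENSDARG00000101717), its downstream partner, had 8352, 8236, 9109 and 8817 in Vgll4l clusters and 9804, 9657, 9716 and 9566 in Yap/Taz clusters, with an interval of -0.25 to -0.09. foxj1a (ENSDARG00000101919), the master gene of motile cilia, had 4338, 4157, 4387 and 4316 after Vgll4l knockdown, against 5123, 5194, 5204 and 5301 after Yap/Taz knockdown, an interval of -0.32 to -0.23. With the deposited scaling all 4 Vgll4l libraries lay below the Yap/Taz libraries in foxj1a, but by less than the log2 of 1 that was set as the limit. For ta, listed in newer annotation as tbxta and needed for DFC movement, the interval was -0.54 to -0.40, and for rfx2, a ciliary regulatory factor, it was -0.72 to -0.50. Control clusters had 27027 to 27874 normalized counts of sox32 and 21541 to 23811 of foxj1a. tbx16 (ENSDARG00000007329), a T-box gene of mesoderm and DFC migration, was among the higher genes, with 2266, 2317, 2359 and 2192 normalized counts after Vgll4l knockdown, 459, 521, 462 and 475 in Yap/Taz clusters and 4674 to 5946 in control clusters. Its 4 Vgll4l libraries lay far above the Yap/Taz libraries (log2 fold change 2.25, standard error 0.05, limma adjusted p = 1.8e-08). sox18, a Sox gene of endothelium, was higher too (404 ± 73.3 in Vgll4l and 15.0 ± 2.89 in Yap/Taz clusters). It had only 1.13 to 2.37 in control clusters, so its high level was on the Vgll4l side. mixl1, also listed and higher, had a control mean of 5.71. rfx3 (ENSDARG00000014550), another ciliary regulatory factor of the Rfx family, went the other way, with 0.764, 0.944, 0.977 and 0 after Vgll4l knockdown, 111, 98.2, 86.6 and 85.4 in Yap/Taz clusters and 32.4 to 48.5 in control clusters (log2 fold change -5.89, limma adjusted p = 3.9e-07). Its Vgll4l libraries were all near 0. dand5, the Nodal antagonist of Kupffer's vesicle, was at 0 in all 8 knockdown libraries and fell below the mean needed for a test.

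**Figure D2:**
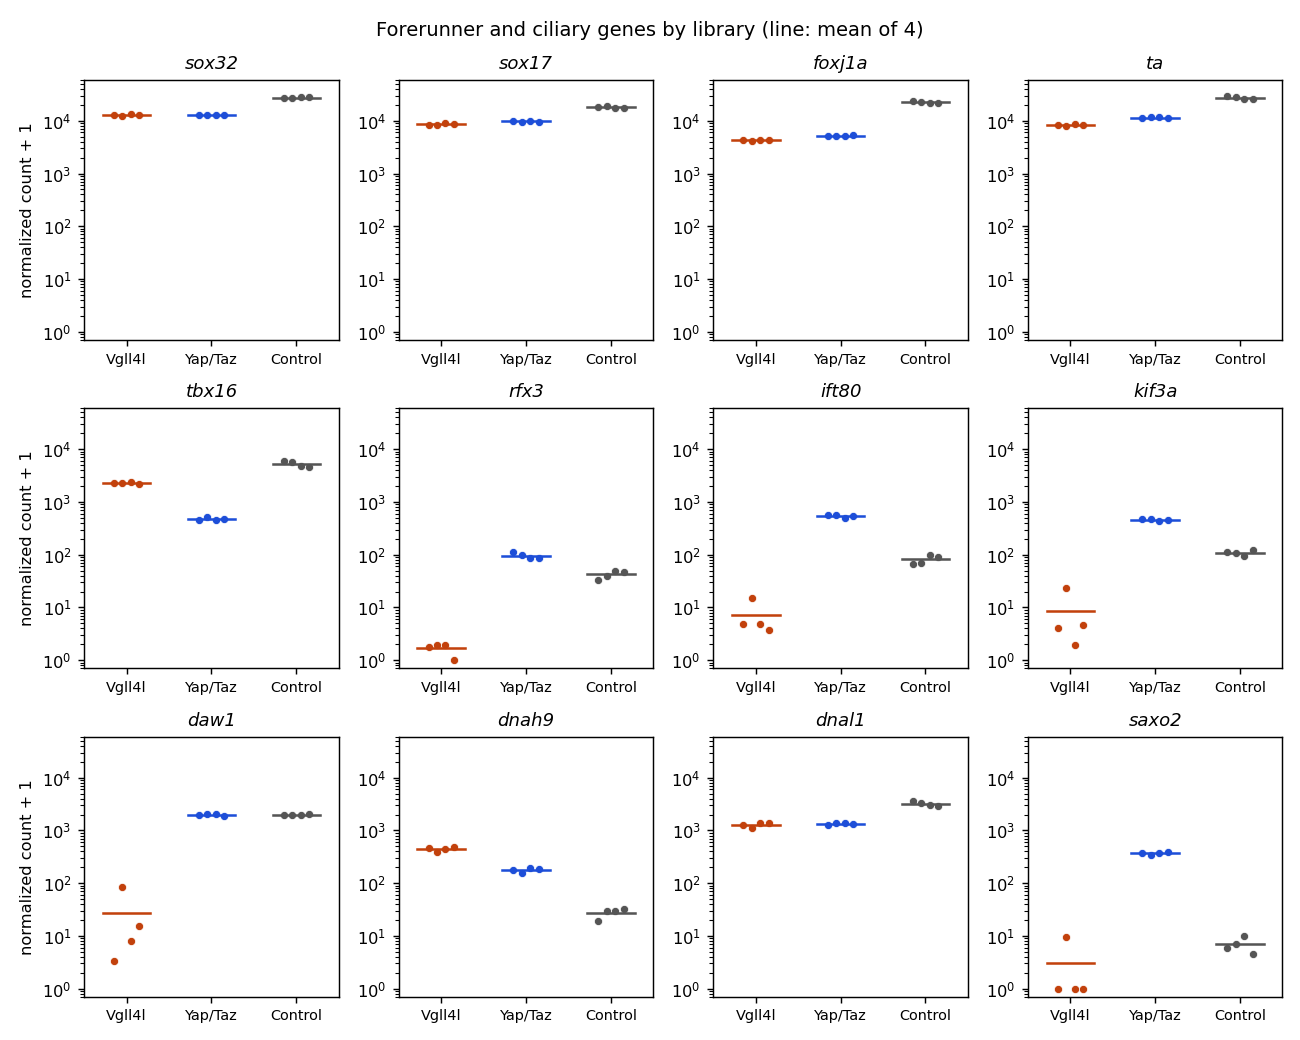
Normalized counts of 6 forerunner factor genes (sox32, sox17, foxj1a, ta, tbx16 and rfx3) and 6 ciliary genes in each library, on a logarithmic axis of value + 1, with Vgll4l knockdown at the left, Yap/Taz knockdown in the middle and control at the right of each panel. The knockdowns lie close together in the first 4 panels and apart in the others, except dnal1, where they overlap.

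Ciliary genes were lower after Vgll4l knockdown than after Yap/Taz knockdown in most of the lists, with members that went the other way in each. The lowest median of these lists was that of intraflagellar transport, the machinery that carries proteins along the axoneme. There 17 of 25 genes were lower and 4 higher, with a median log2 fold change of -3.21, against 32.9% lower and 29.6% higher over all genes. ift80 (ENSDARG00000038879) had 3.82, 14.2, 3.91 and 2.76 normalized counts after Vgll4l knockdown, 553, 561, 506 and 545 in Yap/Taz clusters and 66.4 to 95.8 in control clusters. kif3a (ENSDARG00000087538), which encodes a motor subunit of anterograde transport, had 3.06, 22.7, 0.977 and 3.69 in Vgll4l clusters and 466, 477, 444 and 457 in Yap/Taz clusters, and 92.4 to 119.6 in control clusters. In both genes the Vgll4l libraries were a small fraction of every Yap/Taz library and the highest of them was replicate 2. Its partner kif3b was also lower (23.2 ± 13.8 in Vgll4l and 1032 ± 29.0 in Yap/Taz clusters). ift20, wdr19 (Ift144) and kif3cb were higher after Vgll4l knockdown instead: ift20 had 558 ± 88.9 in Vgll4l and 140.0 ± 15.0 in Yap/Taz clusters, wdr19 had 229 ± 32.8 in Vgll4l and 12.3 ± 2.91 in Yap/Taz clusters, and kif3cb had 248 ± 24.6 in Vgll4l and 36.3 ± 3.33 in Yap/Taz clusters normalized counts (log2 fold changes 1.98, 4.13 and 2.74). Control clusters had 915 to 1086 of ift20 and 497 to 566 of wdr19, above both knockdowns, but only 0 to 1.18 of kif3cb. ift46 had 824 in Vgll4l and 637 in Yap/Taz clusters, an interval of 0.19 to 0.55.

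Assembly and docking of axonemal dyneins, the motors of ciliary beating, were also mostly lower, with 17 of 24 genes lower and 1 higher after Vgll4l knockdown (median log2 fold change -1.76). The genes of this list took 0.0676 to 0.0760% of the counts of a Vgll4l library, 0.268 to 0.270% of a Yap/Taz library and 0.351 to 0.366% of a control library. daw1 (ENSDARG00000021462), which is needed for the import of outer dynein arms, had 82.1 normalized counts in Vgll4l replicate 2 and 2.29, 6.84 and 14.7 in the other Vgll4l libraries, against 1999.9, 2016, 2009 and 1912 after Yap/Taz knockdown. The Yap/Taz level was near that of control clusters (1971 to 2043). The log2 fold change was -7.19 with a standard error of 0.91 (limma adjusted p = 1.7e-04). si:rp71-1p14.7 (ENSDARG00000000349), named cfap300 in the reference and a factor of dynein assembly, had 0, 18.9, 2.93 and 1.84 normalized counts after Vgll4l knockdown, against 629, 621, 639 and 617 after Yap/Taz knockdown. dyx1c1 (ENSDARG00000099161), now dnaaf4 and also an assembly factor, had 11.5, 37.8, 12.7 and 8.29 in Vgll4l clusters and 249, 266, 253 and 256 in Yap/Taz clusters, and the docking gene ttc25 had 244, 245, 258 and 272 in Vgll4l clusters and 835, 929, 862 and 823 in Yap/Taz clusters. All 3 were lower after Vgll4l knockdown with no overlap (log2 fold changes -7.34, -4.03 and -1.75). ruvbl1, an ATPase that acts in many complexes, was alike (-0.26 to -0.10).

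The dyneins themselves were more mixed. Of 23 genes of outer and inner arms 11 were lower and 3 higher after Vgll4l knockdown, while the summed share of the list ran the other way, with 0.419 to 0.444% of the counts of a Vgll4l and 0.408 to 0.414% of a Yap/Taz library. DNAH3 (ENSDARG00000068468), an inner arm heavy chain, had 1.42 ± 2.83 after Vgll4l knockdown, against 191 ± 8.27 after Yap/Taz knockdown, while dnah9 (ENSDARG00000103383), an outer arm heavy chain, had 446 ± 43.7 in Vgll4l and 177 ± 16.3 in Yap/Taz clusters and was higher. dnal1, a light chain of the outer arm, had 1268, 1118, 1389 and 1374 in Vgll4l clusters and 1288, 1374, 1402 and 1336 in Yap/Taz clusters. Its libraries overlapped and its interval was -0.24 to 0.10. In the radial spokes, central pair and nexin-dynein links 20 of 33 genes were lower and 4 higher (median log2 fold change -1.83). RSPH3 (ENSDARG00000043470), a radial spoke protein gene, had 1.84 ± 2.58 after Vgll4l knockdown, against 205 ± 15.7 after Yap/Taz knockdown, RSPH1 had 651 ± 45.7 in Vgll4l and 765 ± 29.2 in Yap/Taz clusters with an interval of -0.37 to -0.10, and drc1 (ENSDARG00000042182), of the nexin-dynein complex, was higher at 108 ± 27.3 in Vgll4l and 8.30 ± 2.51 in Yap/Taz clusters. In control clusters drc1 had 440 to 542, above both knockdowns. Among doublet microtubule proteins and tektins 12 of 22 were lower and 2 higher, from cfap45 (8.98 ± 14.8 in Vgll4l and 490.2 ± 8.31 in Yap/Taz clusters) and tekt4 (8.17 ± 13.4 in Vgll4l and 472 ± 17.6 in Yap/Taz clusters) to efhb, which went the other way (66.8 ± 10.6 in Vgll4l and 0.180 ± 0.361 in Yap/Taz clusters). saxo2 (ENSDARG00000006474), a microtubule-associated protein gene, had 0, 8.50, 0 and 0 after Vgll4l knockdown, against 378, 339, 372 and 393 after Yap/Taz knockdown.

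At the base of the cilium 15 of 26 transition zone and basal body genes were lower and 5 higher after Vgll4l knockdown, and of 26 genes of the BBSome and ciliary GTPases 13 were lower and 3 higher. b9d1 (ENSDARG00000011727) and mks1, which belong to one transition zone complex, had 3.29 ± 5.43 and 6.34 ± 10.3 normalized counts after Vgll4l knockdown, and 337 ± 14.5 and 339.9 ± 26.9 after Yap/Taz knockdown. tctn1, which encodes another protein of that zone, lay in the opposite direction, with 345 ± 54.6 after Vgll4l knockdown, against 8.68 ± 3.40 after Yap/Taz knockdown. nphp4 was higher as well (1056 ± 72.7 in Vgll4l and 403 ± 15.9 in Yap/Taz clusters). arl6 (ENSDARG00000032056), the GTPase gene of the BBSome, had 22.7 in Vgll4l replicate 2 and 3.06, 0 and 3.69 in the other Vgll4l libraries, against 247, 256, 302 and 266 after Yap/Taz knockdown. unc119b (ENSDARG00000044362), a carrier of lipid-modified ciliary cargo, had 302, 245, 332 and 383 after Vgll4l knockdown, against 0, 0, 0 and 1.46 after Yap/Taz knockdown, and its control level was 0 to 2.37. Over the 7 ciliary lists together 105 of 179 genes were lower and 22 higher after Vgll4l knockdown, against 109 lower and 22 higher without Vgll4l replicate 2.

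**Figure D3:**
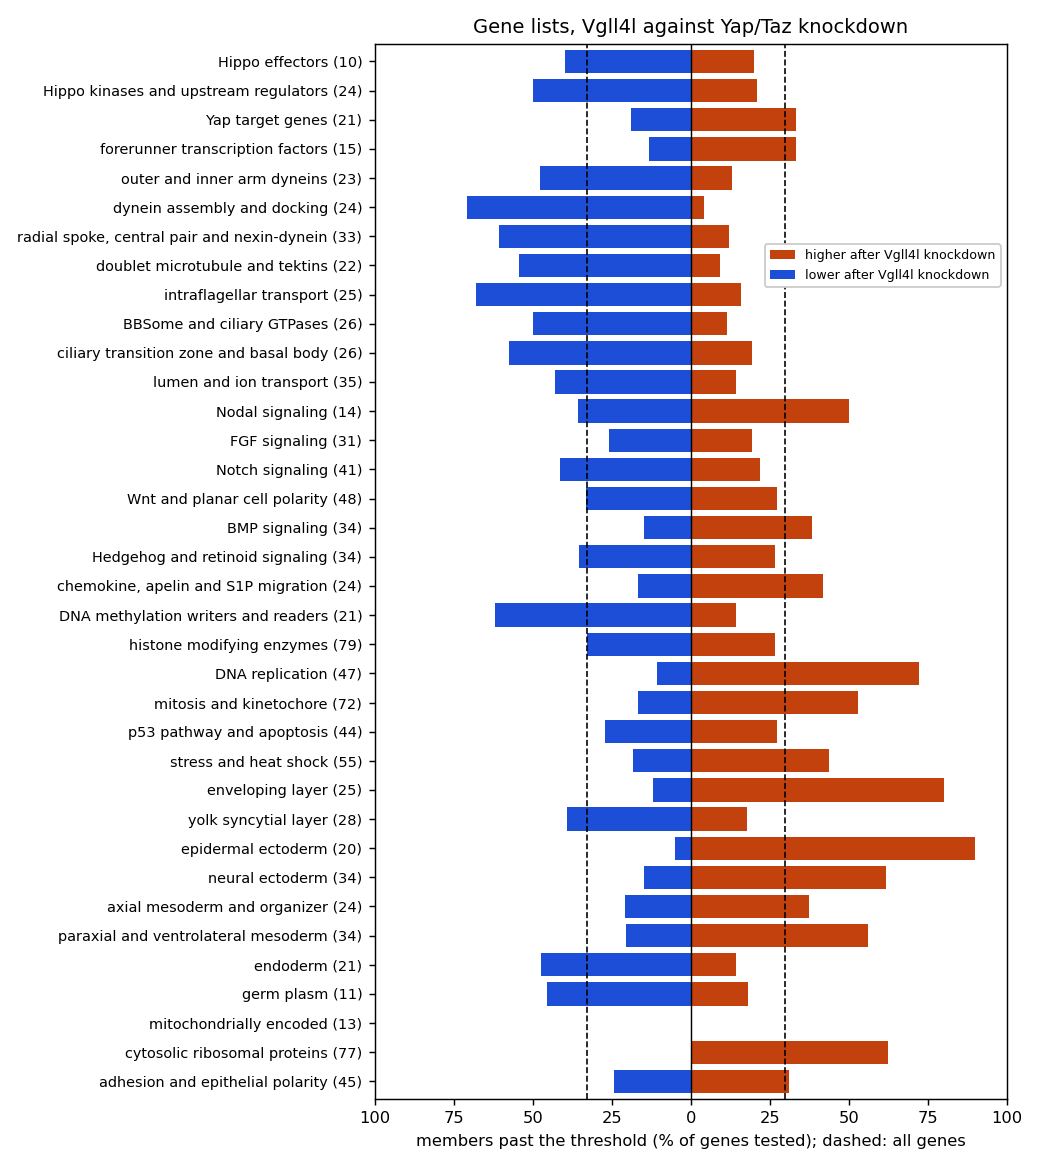
Share of the tested members of each gene list that were higher (right of 0) or lower (left of 0) after Vgll4l knockdown than after Yap/Taz knockdown, in percent, with the number of genes tested beside each name. The dashed lines mark the shares over all 17609 genes, 29.6% higher and 32.9% lower. Dynein assembly and intraflagellar transport reach farthest to the left, and epidermal, enveloping layer and DNA replication genes farthest to the right.

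Most genes of DNA methylation enzymes and readers were lower after Vgll4l knockdown. Of 21 tested genes 13 were lower and 3 higher, with a median log2 fold change of -1.66. Together they took 0.0551 to 0.0663% of the counts of a Vgll4l library, 0.192 to 0.194% of a Yap/Taz library and 0.223 to 0.237% of a control library. dnmt3bb.1 (ENSDARG00000036791), a de novo methyltransferase gene, had 26.0, 101, 42.0 and 26.7 normalized counts after Vgll4l knockdown, 1461, 1512, 1577 and 1522 in Yap/Taz clusters and 1542 to 1750.2 in control clusters. Replicate 2 was the highest of the Vgll4l libraries and still far under every Yap/Taz library (log2 fold change -5.16, standard error 0.41, limma adjusted p = 1.2e-05). dnmt1 (ENSDARG00000030756), the maintenance methyltransferase gene, had 44.3, 56.6, 26.4 and 28.6 in Vgll4l clusters and 324, 315, 336 and 311 in Yap/Taz clusters, with 68.0 to 106 in control clusters (log2 fold change -3.08). The paralogs dnmt3ba and dnmt3bb.2 differed less, with log2 fold changes of -1.66 and -1.61. dnmt3bb.3 was higher after Vgll4l knockdown, at 198 ± 37.3 in Vgll4l clusters against 46.5 ± 9.18 in Yap/Taz clusters (log2 fold change 2.07). Short reads can be shared between these paralogs, and how the counting treated such reads is not given in the sources used here. Of the readers, mbd6 had 3.18 ± 2.97 after Vgll4l knockdown, against 366 ± 25.1 after Yap/Taz knockdown, mbd3b had 1230.0 ± 90.6 in Vgll4l and 3640.2 ± 43.9 in Yap/Taz clusters, and mbd3a had 532 ± 18.6 in Vgll4l and 806 ± 30.9 in Yap/Taz clusters, an interval of -0.68 to -0.51. tdg.1, a glycosylase gene of active demethylation, was alike (-0.01 to 0.32). Histone modifying enzymes leaned neither way, with 21 of 79 higher (26.6%, against 29.6% of all genes) and 26 lower (32.9%, as over all genes). They still included large differences, such as the demethylase gene kdm2ba at 2.59 ± 4.59 after Vgll4l knockdown, against 268 ± 9.55 after Yap/Taz knockdown, and jarid2a, a cofactor of Polycomb repression, at 502 ± 109 in Vgll4l and 3.12 ± 0.848 in Yap/Taz clusters.

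Nodal signaling induces mesendoderm and is read out by Foxh1 and Smad2 or Smad3. Of its 14 genes 7 were higher (50%, against 29.6% of all genes) and 5 lower (35.7%, against 32.9%) after Vgll4l knockdown. The ligand gene ndr1 was lower (5.97 ± 4.85 in Vgll4l and 46.8 ± 4.60 in Yap/Taz clusters), while the feedback antagonists were higher. lft2 (ENSDARG00000044059) had 423, 397, 489 and 466 normalized counts after Vgll4l knockdown, 2.00, 0.798, 0 and 0 in Yap/Taz clusters and 0 to 2.25 in control clusters, so that the Yap/Taz and control libraries were all near 0 and the Vgll4l libraries all far above them. lft1 had 348, 278, 341 and 386 in Vgll4l clusters and 69.3, 73.5, 90.9 and 59.1 in Yap/Taz clusters (log2 fold change 2.20). foxh1 (ENSDARG00000055630) had 199, 185, 222 and 232 after Vgll4l knockdown and was at 0 in each Yap/Taz library, at least 385-fold higher with 3 reads over the whole group taken as the floor for a level of 0. The transducers crossed over, with smad2 lower (81.1 ± 24.1 in Vgll4l and 273 ± 3.51 in Yap/Taz clusters, log2 fold change -1.78) and smad3a higher (211 ± 5.60 in Vgll4l and 71.4 ± 11.8 in Yap/Taz clusters, log2 fold change 1.56) after Vgll4l knockdown. tdgf1, the coreceptor gene, was alike (-0.55 to -0.30).

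Of 31 FGF genes 11 had an interval within a log2 of 1. After Vgll4l knockdown 6 were higher (19.4%, against 29.6% of all genes) and 8 lower (25.8%, against 32.9%). Among the ligands fgf8a had 336, 265, 349.8 and 375 after Vgll4l knockdown, against 958, 982, 925 and 955 after Yap/Taz knockdown and was lower (log2 fold change -1.53), and fgf24 (ENSDARG00000037677) had 656, 478, 699 and 615 in Vgll4l clusters and 9.99, 8.78, 10.1 and 13.1 in Yap/Taz clusters and was higher (log2 fold change 5.73, limma adjusted p = 5.2e-08). fgfr1a, the receptor gene, had an interval of -0.24 to 0.05, and etv4, a transcriptional target, one of 0.04 to 0.25. cnpy1, an FGF signaling regulator of DFCs, was lower (182 ± 23.4 in Vgll4l and 677 ± 20.9 in Yap/Taz clusters). Of 41 Notch genes 9 were higher (22.0%, against 29.6% of all genes) and 17 lower (41.5%, against 32.9%) after Vgll4l knockdown, while the summed share was larger, at 0.251 to 0.261% in Vgll4l and 0.211 to 0.214% in Yap/Taz libraries. dll4 (ENSDARG00000070425), a ligand gene, had 766, 509.8, 850.1 and 901 after Vgll4l knockdown, against 1.33, 0.798, 0.722 and 0 after Yap/Taz knockdown, with 0 to 6.10 in control clusters, and dlc, another ligand gene, had 255 ± 37.5 in Vgll4l and 0.710 ± 0.590 in Yap/Taz clusters. The ligand gene dla was alike (-0.67 to -0.43). Of the target genes her4.1 was lower (11.1 ± 7.48 in Vgll4l and 792 ± 18.1 in Yap/Taz clusters) and her1 higher (1258 ± 147 in Vgll4l and 98.8 ± 7.76 in Yap/Taz clusters) after Vgll4l knockdown, while her7 was alike (-0.32 to -0.20).

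Wnt and planar cell polarity genes divided into 13 higher and 16 lower of 48, shares that lie near those over all genes (29.6% and 32.9%). dkk1b (ENSDARG00000045219), a secreted Wnt antagonist, had 464, 412, 568 and 503 after Vgll4l knockdown, 2.66, 0, 0 and 0 in Yap/Taz clusters and 0 to 2.37 in control clusters. The receptor gene fzd10 was lower after Vgll4l knockdown (151 ± 14.8 in Vgll4l and 819 ± 38.5 in Yap/Taz clusters), fzd8b higher (301 ± 28.2 in Vgll4l and 2.85 ± 1.37 in Yap/Taz clusters), and wnt11, a ligand gene of the polarity pathway, was alike (-0.66 to -0.36). Of 34 BMP genes 13 were higher (38.2%, against 29.6% of all genes) and 5 lower (14.7%, against 32.9%) after Vgll4l knockdown. bambia, a pseudoreceptor gene, had 1085 ± 87.8 after Vgll4l knockdown, against 62.2 ± 12.0 after Yap/Taz knockdown, and admp, a dorsal ligand gene, had 904 ± 64.6 in Vgll4l and 9.22 ± 4.15 in Yap/Taz clusters. The ligand gene bmp2b was lower (399 ± 14.5 in Vgll4l and 852 ± 41.8 in Yap/Taz clusters), a call that was lost under TMM scaling, and the target gene id1 was alike (0.09 to 0.30). In the Hedgehog and retinoid list 9 of 34 were higher (26.5%, against 29.6% of all genes) and 12 lower (35.3%, against 32.9%). boc, a Hedgehog coreceptor gene, had 341 ± 62.7 after Vgll4l knockdown, against 0.363 ± 0.419 after Yap/Taz knockdown, gli1, a target, had 12.1 ± 4.39 in Vgll4l and 123 ± 11.1 in Yap/Taz clusters, and rdh10a, which encodes an enzyme of retinal synthesis, had 615 ± 36.3 in Vgll4l and 0.710 ± 0.590 in Yap/Taz clusters.

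Most listed genes of mesoderm outside the organizer and of ectoderm were higher after Vgll4l knockdown, while more endoderm genes were lower than higher. These are bulk clusters, in which fewer cells of a type and less RNA per cell cannot be told apart. Of 34 genes of paraxial and ventrolateral mesoderm 19 were higher and 7 lower, with a median log2 fold change of 2.86, or 3.40 with the genes that were at 0 in a whole knockdown set at the bound that 3 reads give. myf5 (ENSDARG00000007277), a myogenic factor gene, had 1308, 1181, 1381 and 1264 normalized counts after Vgll4l knockdown, 3.33, 2.40, 5.77 and 0 in Yap/Taz clusters and 2.37 to 6.48 in control clusters. tbx6 (ENSDARG00000011785), a T-box gene of presomitic mesoderm, had 509.7, 469, 507 and 536 in Vgll4l clusters and 0.666, 0.798, 0.722 and 1.46 in Yap/Taz clusters, and 1.18 to 3.24 in control clusters. The libraries of the knockdowns were parted by far more than their own range in both genes. myod1, the other early myogenic gene, ran against this at 74.4 ± 6.49 after Vgll4l knockdown, against 234 ± 19.2 after Yap/Taz knockdown (log2 fold change -1.64), and so did tbx6l (13.1 ± 6.16 in Vgll4l and 202 ± 12.5 in Yap/Taz clusters), now named tbx16l. hoxb13a (ENSDARG00000056015), a posterior Hox gene, had 293, 228, 286 and 319 after Vgll4l knockdown and was at 0 in each Yap/Taz library, at least 517-fold higher at the floor of 3 reads over the group. vox, a ventral factor gene, had 4898, 5038, 5245 and 5046 in Vgll4l clusters and 5278, 5284, 5352 and 5267 in Yap/Taz clusters, an interval of -0.12 to -0.02. In summed share the list was slightly lower after Vgll4l knockdown (0.296 to 0.305% of counts) than after Yap/Taz knockdown (0.313 to 0.317%). A share is taken of the whole library. Normalized counts summed to 8212941 to 8778954 in Vgll4l and 7178104 to 7242928 in Yap/Taz libraries. By these totals the list still held more normalized counts in every Vgll4l library than in any Yap/Taz library.

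Of 20 epidermal genes 18 were higher and 1 lower after Vgll4l knockdown (median log2 fold change 2.57). tfap2c (ENSDARG00000040606) and gata2a (ENSDARG00000059327), transcription factor genes of non-neural ectoderm, were far higher in every Vgll4l library. tfap2c had 954, 847, 1072 and 1039 normalized counts in Vgll4l clusters and 10.7, 18.4, 20.2 and 21.9 in Yap/Taz clusters. gata2a had 546, 586, 519.8 and 512 in Vgll4l clusters and 9.99, 10.4, 11.5 and 7.30 in Yap/Taz clusters. cdh1, the E-cadherin gene, was alike (-0.09 to 0.18). The neural list had 21 of 34 genes higher and 5 lower, but a smaller summed share after Vgll4l knockdown (0.147 to 0.156% of counts) than after Yap/Taz knockdown (0.235 to 0.240%). zic2b (ENSDARG00000037178), a zinc finger gene of neural ectoderm, had 760.3, 696, 822 and 738 after Vgll4l knockdown, 2.66, 0.798, 1.44 and 2.19 in Yap/Taz clusters and 401 to 502 in control clusters. irx1b was at 297 ± 32.1 after Vgll4l knockdown and at 0 in every Yap/Taz library, at least 546-fold higher at the same floor. sox3 (ENSDARG00000053569), a SoxB1 gene of neural progenitors, was the reverse, with 174, 235, 135 and 124 after Vgll4l knockdown, 2527, 2593, 2585 and 2579 in Yap/Taz clusters and 153 to 221 in control clusters. her5 and gbx2, genes of the midbrain and hindbrain region, were lower too (20.9 ± 6.33 and 6.99 ± 5.33 after Vgll4l knockdown, 216 ± 15.1 and 53.3 ± 7.77 in Yap/Taz clusters). In the organizer and axial mesoderm list 9 of 24 were higher (37.5%, against 29.6% of all genes) and 5 lower (20.8%, against 32.9%). gsc (ENSDARG00000059073), the goosecoid gene, had 5.35, 8.50, 8.79 and 5.53 after Vgll4l knockdown, against 198, 236, 202 and 197 after Yap/Taz knockdown, with 0 to 1.62 in control clusters, while ripply1 had 101 ± 18.1 in Vgll4l and 0.182 ± 0.365 in Yap/Taz clusters. Endoderm genes were lower in 10 of 21 (47.6%, against 32.9% of all genes) and higher in 3 (14.3%, against 29.6%). foxa1 (ENSDARG00000102138) had 0.764, 3.78, 0 and 0.922 in Vgll4l clusters and 121, 114, 113 and 101 in Yap/Taz clusters, prox1a had 8.46 ± 6.37 in Vgll4l and 278 ± 5.19 in Yap/Taz clusters, and mixl1, a Nodal-induced homeobox gene, was higher (91.8 ± 25.0 in Vgll4l and 10.6 ± 2.77 in Yap/Taz clusters). sox17 and sox32, which belong to this list as well, were alike.

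**Figure D4:**
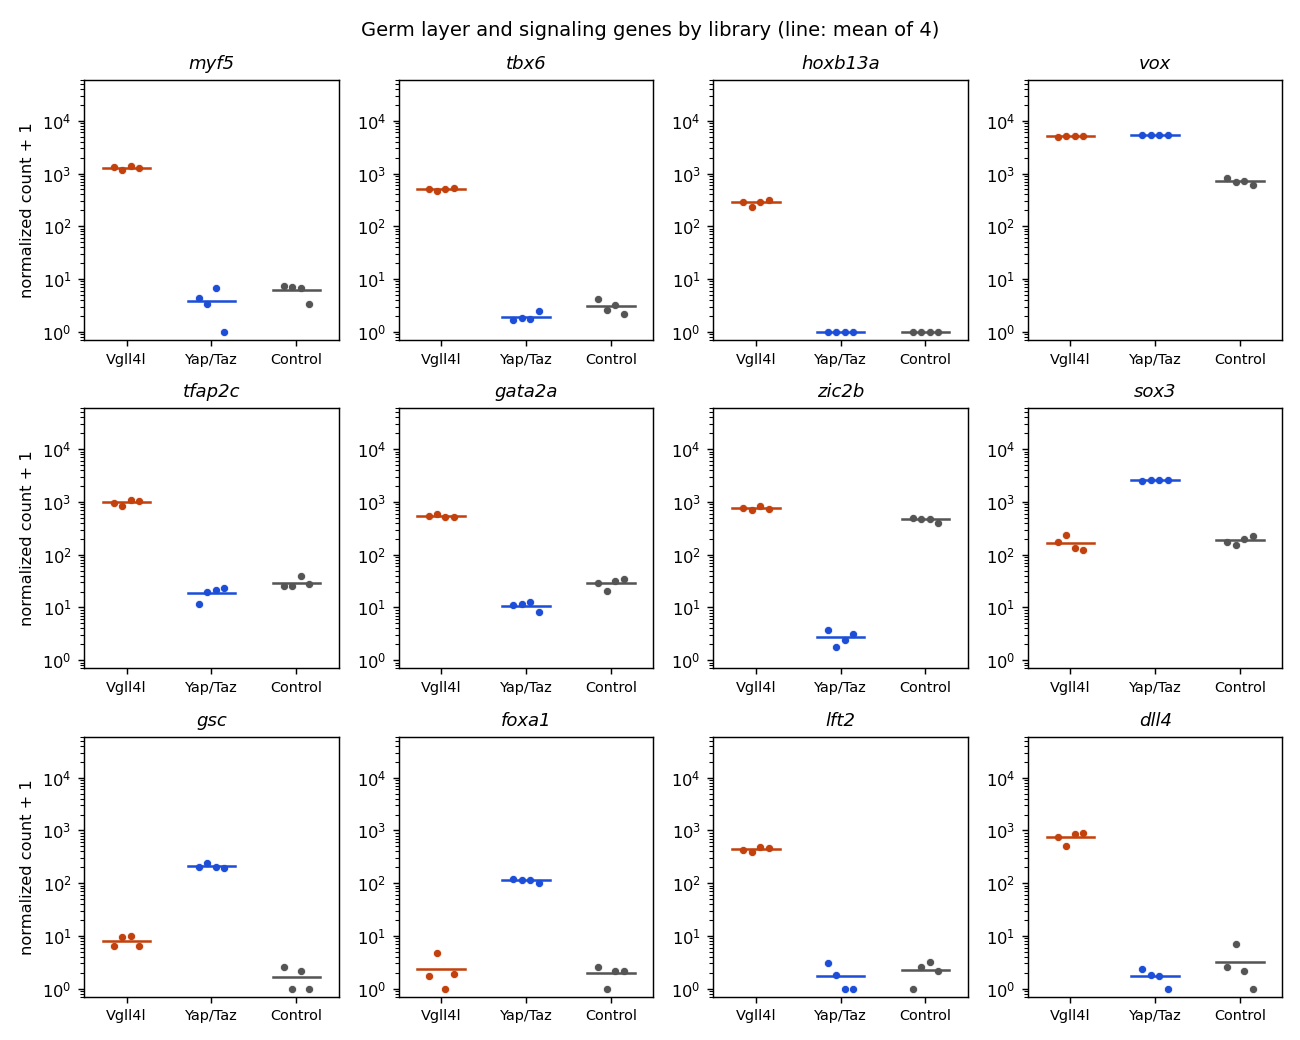
Normalized counts of 12 genes of mesoderm, ectoderm, endoderm and signaling in each library, on a logarithmic axis of value + 1, with Vgll4l knockdown at the left, Yap/Taz knockdown in the middle and control at the right of each panel. Of these genes vox differs least between the knockdowns, sox3, gsc and foxa1 lie lower after Vgll4l knockdown, and the other 8 lie higher.

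Taken as summed shares, markers of the tissues that lie against the DFCs differed between the knockdowns in opposite directions. Each list also held members that went the other way. The enveloping layer is the flat epithelium over the embryo, to which DFCs are attached. Its listed genes made up 4.21 to 4.72% of the counts of a Vgll4l library, 0.917 to 0.927% of a Yap/Taz library and 0.596 to 0.642% of a control library, and 20 of 25 were higher and 3 lower after Vgll4l knockdown (median log2 fold change 2.96). The keratin gene krt17 (ENSDARG00000094041) had 4154, 3894, 4181 and 4167 normalized counts after Vgll4l knockdown, against 115, 116, 110.4 and 111 after Yap/Taz knockdown, and icn (ENSDARG00000009978), a calcium-binding protein gene, had 1845, 2266, 1728 and 1709 in Vgll4l clusters and 22.7, 16.8, 21.7 and 16.1 in Yap/Taz clusters. Keratin genes are near-identical in places and may share reads. The tight junction gene cldne had 8868, 8431, 9190.0 and 9047 in Vgll4l clusters and 7529, 7535, 7658 and 7411 in Yap/Taz clusters, an interval of 0.17 to 0.30, and grhl3, a transcription factor gene of this layer, was lower after Vgll4l knockdown (138 ± 36.0 in Vgll4l and 334 ± 15.4 in Yap/Taz clusters). krt4 was added to the named genes after its values were seen, with 148290.0 ± 17314 after Vgll4l knockdown, against 13412 ± 159.6 after Yap/Taz knockdown. It is therefore no independent evidence of a direction. Of 29 genes on the list 25 were tested, and krt94 and krt15 were at 0 in each Yap/Taz library. The yolk syncytial layer lies under the DFCs and secretes lipoproteins. Its genes made up 0.755 to 0.783% of the counts of a Vgll4l library, 1.69 to 1.73% of a Yap/Taz library and 0.226 to 0.253% of a control library. Of 28 tested 11 were lower (39.3%, against 32.9% of all genes) and 5 higher (17.9%, against 29.6%) after Vgll4l knockdown. ttr and fgb were at 0 in all 8 libraries and mxtx2 in the Yap/Taz libraries. Among the 5 higher ones were apoa4b.1 (109 ± 12.0 in Vgll4l and 0.533 ± 0.653 in Yap/Taz clusters) and apoba (139 ± 23.0 in Vgll4l and 20.8 ± 2.64 in Yap/Taz clusters). So was gcga (114 ± 6.81 in Vgll4l and 20.4 ± 6.99 in Yap/Taz clusters). rbp4 (ENSDARG00000101199), the retinol carrier gene, had 5.35, 6.61, 7.82 and 10.1 after Vgll4l knockdown, against 239.8, 245, 244 and 253 after Yap/Taz knockdown, slc26a1, an anion transporter gene, had 400.1 ± 72.6 in Vgll4l and 3174 ± 111 in Yap/Taz clusters, and apoa1a, an apolipoprotein gene, had 3918, 3543, 4169 and 4161 in Vgll4l clusters and 4456, 4225, 4403 and 4576 in Yap/Taz clusters, with overlapping libraries and an interval of -0.30 to -0.03. For both lists the 4 Vgll4l and the 4 Yap/Taz shares did not overlap, and the exact permutation test gave p = 0.029, the smallest that 4 against 4 allow (two-sided, 1 of 37 lists compared). All 37 lists reached that p, so it sets none of them apart. In 9 of the lists the summed share, in which members with high counts weigh most, lay on the other side from most of the calls: those of forerunner factors, arm dyneins, Nodal, Notch, migration, neural ectoderm, axial mesoderm, paraxial mesoderm and adhesion. A share also falls with the total of normalized counts in a library, which was larger after Vgll4l knockdown. For paraxial mesoderm, and on average for Nodal, the summed normalized counts lay on the side of the calls. The part of the enveloping and yolk syncytial layers in the differences of other lists was not tested.

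**Figure D5:**
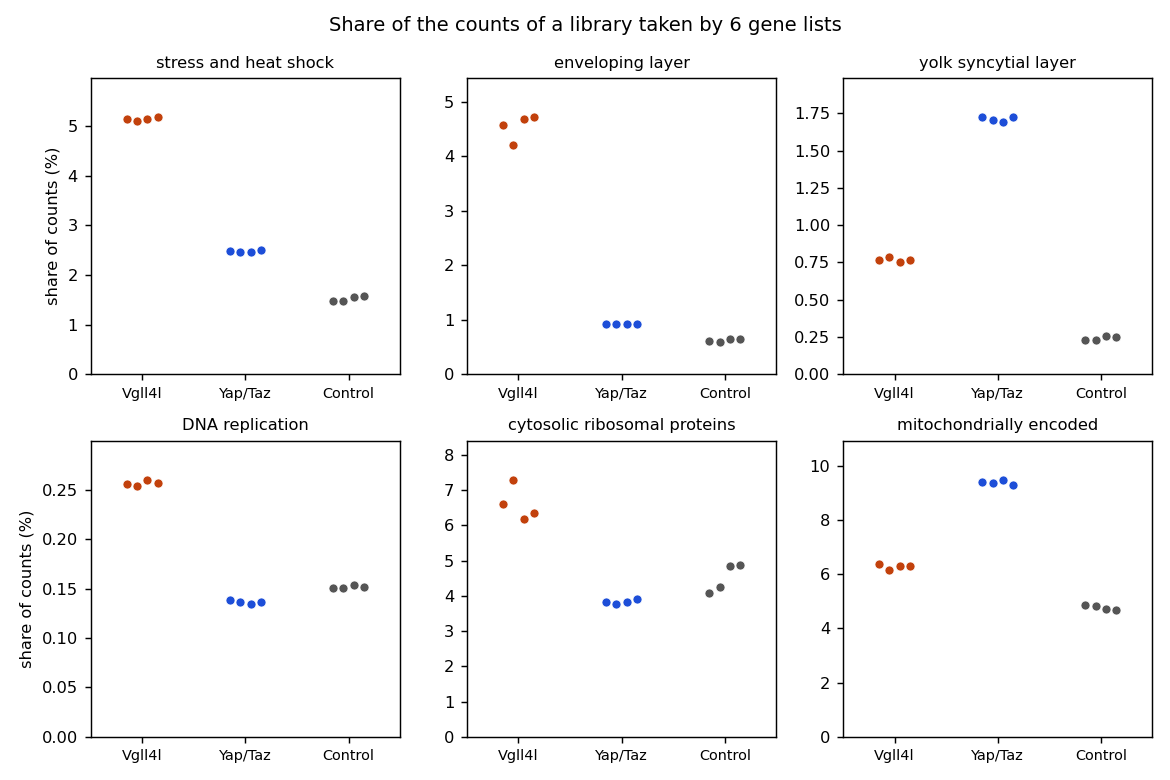
Share of all normalized counts of a library that the genes of 6 lists took, in percent, 1 point per library, with Vgll4l knockdown at the left, Yap/Taz knockdown in the middle and control at the right. The Vgll4l libraries lie highest for heat shock, enveloping layer, DNA replication and ribosomal protein genes and between the other groups for the yolk syncytial layer and mitochondrially encoded genes.

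Among the largest differences were chaperone genes of the heat shock response, which fold damaged proteins and are induced through Hsf1. Of 55 stress genes 24 were higher and 10 lower, and the list took 5.10 to 5.19% of the counts of a Vgll4l library, 2.46 to 2.50% of a Yap/Taz library and 1.47 to 1.58% of a control library. hsph1 (ENSDARG00000019874), which encodes a large chaperone of the Hsp110 family, had 11398, 9443, 11985 and 11694 normalized counts after Vgll4l knockdown, 19.3, 19.2, 18.8 and 24.1 in Yap/Taz clusters and 30.8 to 50.2 in control clusters. bag3 (ENSDARG00000039486), the gene of a cochaperone of Hsp70, had 9797, 8028, 10460.3 and 10164 in Vgll4l clusters and 10.7, 14.4, 14.4 and 14.6 in Yap/Taz clusters, and 38.3 to 55.0 in control clusters. In both genes every Vgll4l library lay far above every Yap/Taz library, and the Yap/Taz libraries lay below all control libraries (log2 fold changes 9.03 and 9.37, limma adjusted p = 3.5e-09 and 5.1e-09). si:ch211-199o1.2 (ENSDARG00000056210), named hspa1b in the reference, had 3573, 2737, 3575 and 3704 in Vgll4l clusters and 7.33, 4.79, 7.22 and 5.84 in Yap/Taz clusters, and dnajb1a, an Hsp40 gene, had 338 ± 58.8 in Vgll4l and 1.42 ± 0.764 in Yap/Taz clusters. The hsp70 genes are close copies and may share reads. hsp70.3, hsp90aa1.2 and HSPB8 were added to the named genes after their values were seen, so they are no independent evidence of a direction. hsp70.3 had 31175 ± 2735 after Vgll4l knockdown, against 653 ± 18.8 after Yap/Taz knockdown, hsp90aa1.2 had 34551 ± 628 in Vgll4l and 1304 ± 52.6 in Yap/Taz clusters, and HSPB8 had 1841 ± 162 in Vgll4l and 22.0 ± 1.51 in Yap/Taz clusters. hsf1 itself was alike, at 233, 159.6, 253 and 213 in Vgll4l clusters and 207, 216, 223 and 234 in Yap/Taz clusters (95% interval -0.38 to 0.27), and so was xbp1, of the unfolded protein response of the endoplasmic reticulum (-0.07 to 0.16). Lower after Vgll4l knockdown were sod2, the mitochondrial superoxide dismutase gene (0.236 ± 0.472 in Vgll4l and 70.7 ± 6.37 in Yap/Taz clusters), ddit3, of the integrated stress response (12.1 ± 3.21 in Vgll4l and 171 ± 8.79 in Yap/Taz clusters), and junbb (3.94 ± 2.41 in Vgll4l and 51.0 ± 4.18 in Yap/Taz clusters).

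Most cell cycle genes on the lists were higher after Vgll4l knockdown. In the DNA replication list 34 of 47 were higher and 5 lower, with a median log2 fold change of 1.76, and the list took 0.254 to 0.260% of the counts of a Vgll4l library, 0.134 to 0.138% of a Yap/Taz library and 0.151 to 0.154% of a control library. rpa2 (ENSDARG00000037188), of the complex that binds single-stranded DNA, had 403, 317, 414 and 407 normalized counts after Vgll4l knockdown, 0, 1.60, 0 and 0.730 in Yap/Taz clusters and 2.37 to 12.4 in control clusters. pold3 (ENSDARG00000076169), a subunit gene of DNA polymerase delta, had 364, 349, 458 and 475 in Vgll4l clusters and 0, 0.798, 1.44 and 0.730 in Yap/Taz clusters, and 10.7 to 29.6 in control clusters. Both were thus near 0 after Yap/Taz knockdown and well above it after Vgll4l knockdown. dhfr (ENSDARG00000004251), which supplies precursors for DNA synthesis, was the reverse, with 71.1, 123, 93.8 and 75.6 in Vgll4l clusters and 2027, 2062, 2057 and 1964 in Yap/Taz clusters. The helicase gene mcm6 had 1204, 1289, 1238 and 1211 in Vgll4l clusters and 1099.9, 1138, 1061 and 1082 in Yap/Taz clusters, an interval of 0.10 to 0.25. For mitosis and the kinetochore 38 of 72 genes were higher and 12 lower (median log2 fold change 1.05). knl1 (ENSDARG00000070239), a kinetochore scaffold gene, had 348, 306, 352 and 334 after Vgll4l knockdown, against 0, 1.60, 0 and 0 after Yap/Taz knockdown, espl1, the separase gene, had 662 ± 56.3 in Vgll4l and 5.39 ± 2.08 in Yap/Taz clusters, and kif20a (ENSDARG00000044491), a kinesin gene of cytokinesis, had 0, 5.66, 0.977 and 0 in Vgll4l clusters and 264, 279, 242 and 285 in Yap/Taz clusters and was lower. plk1, a mitotic kinase gene, was alike at 1786 ± 54.1 in Vgll4l and 1729 ± 41.8 in Yap/Taz clusters (-0.02 to 0.11). Genes of the p53 pathway and apoptosis were level in count, with 12 of 44 higher (27.3%, against 29.6% of all genes) and 12 lower (27.3%, against 32.9%). casp6, an effector caspase gene, was higher (139.9 ± 5.92 in Vgll4l and 0.541 ± 1.08 in Yap/Taz clusters), as was phlda3, a p53 target (72.7 ± 3.91 in Vgll4l and 0.182 ± 0.365 in Yap/Taz clusters), while sesn1, another target, was lower (1.66 ± 1.62 in Vgll4l and 97.0 ± 12.7 in Yap/Taz clusters).

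Cytosolic ribosomal protein genes were nearly all shifted upward after Vgll4l knockdown. Of 77 tested 48 were higher and 0 lower after Vgll4l knockdown by limma, with a median log2 fold change of 1.04 that lies at the threshold. At an unadjusted p under 0.05 and any fold 1 was lower, and edgeR and DESeq2 called 0 lower. In 74 of them all 4 Vgll4l libraries were above all 4 Yap/Taz libraries, against 36.4% of all genes. Under TMM scaling 64 passed and without Vgll4l replicate 2 41 did. The list took 6.17 to 7.30% of the counts of a Vgll4l library, 3.76 to 3.92% of a Yap/Taz library and 4.07 to 4.88% of a control library. rps20 had 19999.8, 20674, 19211 and 19975 normalized counts after Vgll4l knockdown, against 6461, 6375, 6473 and 6537 after Yap/Taz knockdown, while rpl3 had 8284, 7856, 8498 and 8618 in Vgll4l clusters and 7791, 7864, 7929 and 8143 in Yap/Taz clusters, an interval of -0.01 to 0.14. The 13 mitochondrially encoded protein genes took a smaller share after Vgll4l knockdown, 6.15 to 6.37%, than after Yap/Taz knockdown, 9.30 to 9.48%, with 4.69 to 4.85% in control libraries. No single gene of the 13 passed by limma, edgeR or DESeq2, although at an unadjusted p under 0.05 and any fold 4 were higher and 9 lower after Vgll4l knockdown, and for 12 of them the interval lay within a log2 of 1. The median log2 fold change was -0.30 with the deposited and -0.07 with TMM scaling. mt-co2 had 128470, 128838, 126227 and 127448 in Vgll4l clusters and 146376, 145921, 148301 and 144014 in Yap/Taz clusters. All its Vgll4l libraries lay below the Yap/Taz libraries by a small margin (-0.23 to -0.16), which TMM scaling turned to a log2 fold change of 0.04.

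Genes of cell migration and of the epithelium that DFCs form included large differences in each direction. s1pr1 (ENSDARG00000042690), a sphingosine-1-phosphate receptor gene, had 1.53, 31.2, 2.93 and 4.61 normalized counts after Vgll4l knockdown, 868, 857, 953 and 839 in Yap/Taz clusters and 648 to 751 in control clusters. aplnra and aplnrb, the apelin receptor genes, were higher after Vgll4l knockdown: aplnrb had 54.0 ± 4.79 in Vgll4l and 0.200 ± 0.399 in Yap/Taz clusters, and aplnra had 70.9 ± 6.12 in Vgll4l clusters and was at 0 in each Yap/Taz library. Control clusters had more of these receptor genes than both knockdowns, 430 to 531 of aplnrb and 355 to 430 of aplnra. apela, their ligand gene, was alike at 776, 756, 863 and 779.6 in Vgll4l clusters and 776, 802, 784 and 745 in Yap/Taz clusters (-0.08 to 0.14). Of 24 migration genes 10 were higher (41.7%, against 29.6% of all genes) and 4 lower (16.7%, against 32.9%). cdh11 (ENSDARG00000021442), a mesenchymal cadherin gene, had 1.53, 10.4, 1.95 and 1.84 after Vgll4l knockdown, against 536, 592, 549 and 555 after Yap/Taz knockdown, and cdh17, a cadherin gene of epithelia, had 212 ± 49.6 in Vgll4l and 0.699 ± 0.944 in Yap/Taz clusters. The adhesion and polarity list held 14 higher and 11 lower of 45, shares of 31.1% and 24.4% that lie near those over all genes. Among 35 genes of lumen formation and ion transport 15 were lower (42.9%, against 32.9% of all genes) and 5 higher (14.3%, against 29.6%). atp6ap1b (ENSDARG00000037153), an accessory gene of the proton pump, had 66.5, 148, 76.2 and 89.4 in Vgll4l clusters and 915, 861, 923 and 861 in Yap/Taz clusters (log2 fold change -3.28). cftr (ENSDARG00000041107), the chloride channel gene of lumen expansion, had 711, 619, 688 and 767 in Vgll4l clusters and 384, 386, 369.5 and 406 in Yap/Taz clusters. All its Vgll4l libraries lay above the Yap/Taz libraries, with a log2 fold change of 0.84 (0.69 to 1.00) that missed the fold threshold and passed it under TMM scaling (1.08) and with edgeR (1.07).

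The 10 largest differences in each direction, among genes averaging 500 or more in the higher knockdown, parted libraries with reads from libraries with almost none. Besides bag3, hsph1, hspa1b, dll4 and myf5, the genes higher after Vgll4l knockdown were snapc4, of the complex that transcribes small nuclear RNAs (1156 ± 173 in Vgll4l and 0.696 ± 0.545 in Yap/Taz clusters), ptges3l (8388 ± 343 in Vgll4l and 14.6 ± 1.81 in Yap/Taz clusters), hoxb5b, a Hox gene (1164 ± 154 in Vgll4l and 1.31 ± 0.808 in Yap/Taz clusters), lrit3a (652 ± 116 in Vgll4l and 0.547 ± 0.368 in Yap/Taz clusters) and crhr1, a receptor gene of corticotropin-releasing hormone (732 ± 167 in Vgll4l and 1.13 ± 1.41 in Yap/Taz clusters). Of the genes lower after Vgll4l knockdown, nr5a2 (ENSDARG00000100940), an orphan nuclear receptor gene, had 13.2 normalized counts in Vgll4l replicate 2 and 0.764, 0.977 and 0.922 in the other Vgll4l libraries, against 963, 1025, 982 and 1091 after Yap/Taz knockdown. Its control level was 1.13 to 3.24, so the high level was on the Yap/Taz side. Likewise low after Vgll4l knockdown were myo3b, a class III myosin gene (3.07 ± 6.14 in Vgll4l and 590.0 ± 10.5 in Yap/Taz clusters, control mean 1.19), prss23, a serine protease gene (4.24 ± 7.88 in Vgll4l and 617 ± 38.0 in Yap/Taz clusters, control mean 9.76), nr2e3, a nuclear receptor gene (8.91 ± 10.0 in Vgll4l and 1668 ± 52.3 in Yap/Taz clusters, control mean 10.5), tfdp2, a dimerization partner gene of E2F (5.43 ± 9.61 in Vgll4l and 645 ± 33.8 in Yap/Taz clusters, control mean 55.2), and efna3b, an ephrin ligand gene (6.09 ± 9.80 in Vgll4l and 821 ± 24.3 in Yap/Taz clusters, control mean 19.1). The other 4 were angptl7, znf1014, WDCP and UBE2M, with log2 fold changes of -8.22, -8.08, -7.78 and -7.71. Of the genes that averaged 50 or more in the other knockdown, 20 were at 0 in all 4 Vgll4l libraries and 170 in all 4 Yap/Taz libraries. Most of them averaged under 50 in control clusters too, with a control mean of at least 50 in 1 of those at 0 after Vgll4l knockdown and in 22 of those at 0 after Yap/Taz knockdown. With Vgll4l replicate 2 left aside, 265 such genes were at 0 in Vgll4l replicates 1, 3 and 4. That count asks for 0 in fewer libraries than the 170 does, so it cannot be ranked against it.

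Genes that the study had named for its transcriptome were compared in the same way. Of 57 tested 29 were lower and 7 higher after Vgll4l knockdown, and for 17 the interval lay within a log2 of 1. The study had picked part of them because their staining was weak or absent in DFCs after Vgll4l knockdown, so the count is no independent evidence of a direction. Alike were rasgef1ba, an exchange factor gene, at 369.8, 456, 397 and 361 after Vgll4l knockdown, against 364, 381, 379 and 383 after Yap/Taz knockdown (-0.11 to 0.24), cdc14aa, a phosphatase gene of ciliogenesis, at 390.5, 327, 422 and 354 in Vgll4l clusters and 403, 401, 397 and 377 in Yap/Taz clusters (-0.27 to 0.10), and the transporter gene abcc6a (-0.91 to -0.58). rassf7b was lower at 236 ± 57.4 after Vgll4l knockdown, against 1237 ± 15.4 after Yap/Taz knockdown, as was dhrs13a.1, a dehydrogenase gene (295 ± 21.3 in Vgll4l and 1863 ± 24.7 in Yap/Taz clusters). si:ch73-364h19.1 was higher (631 ± 85.8 in Vgll4l and 41.3 ± 1.98 in Yap/Taz clusters), and so was tnfrsf21, a death receptor gene (97.9 ± 30.1 in Vgll4l and 34.4 ± 6.20 in Yap/Taz clusters). Both were highest in control clusters, at 1564 to 1755 for si:ch73-364h19.1 and 1923 to 2349 for tnfrsf21. slc35d1a, a nucleotide sugar transporter gene, had a log2 fold change of -1.21, past the threshold with the deposited scaling and under it with TMM scaling (-0.98).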

How the data were processed

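RNA-seq libraries (SMART-Seq v4, 50-bp single-end reads) of dissected DFC clusters had been aligned by the authors with STAR to GRCz10 and counted with featureCounts, and the deposited values per gene are headed TPM. They are a signal in another unit: 100% of the values are whole multiples of 1 step per library (tolerance 0.001), so the deposited signal is read counts that the authors scaled by the size factor of each library, as DESeq2 does, called normalized counts here. Tool versions are not given in the sources used here. The authors' own fold changes and adjusted p-values in the table were not used. Gene names came from the table for 18446 of 31953 IDs and from the reference table by ID for 8398, and 5109 stayed under their ID.

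Genes averaging 1 or more over the 12 libraries were fitted on log2(normalized count + 1) with limma 3.58.1 (R 4.3.3, trend) in the 8 knockdown libraries, with Benjamini-Hochberg adjustment over all 17609. Fold changes on this scale understate the change of low genes. Alternatives were other pseudocounts, filters and fold thresholds, a fit of all 12 libraries, TMM scaling, edgeR 4.0.16 and DESeq2 1.42.0 on recovered reads, a replicate block and leaving out each library. Shares of counts were compared with an exact permutation test (scipy 1.17.1). Tested on simulated data for this comparison, limma called 63 of 67 genes given a log2 change of 1.5, 66 of 67 given 2, 65 of 66 given 3 and 4 of 17409 unchanged ones. Few genes were changed there, none of them with low counts, and the true size factors were used. In the real data 62.6% of genes were called and the scaling is uncertain, so these rates need not hold for them.

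Members and lists were chosen with earlier results of these data known. Of 1448 list entries in 37 lists, 1359 matched 1 ID. Named genes were those knocked down, those the study names for its transcriptome, the 10 largest differences in each direction averaging 500 or more in the higher knockdown and no overlap of libraries, and per list up to 3 in each direction averaging 50 or more without overlap and up to 2 alike genes averaging 100 or more in both knockdowns. Not every gene so named is printed, and krt4, hsp70.3, hsp90aa1.2 and HSPB8 were added to them after their values were seen. Precision was limited by 4 libraries per group and by 8698990 to 11235726 reads per knockdown library.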

Additional observations from a re-analysis of the deposited data

Results flagged for a closer look

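Within each knockdown the gap of the highest or lowest of the 4 libraries to its neighbour was set against the range of the group. Of 368 such groups of values, 58 had a library beyond the 95% critical value of Dixon's test. Chance flags about 1 in 20 groups of continuous values, a rate that does not hold for groups with few reads, and in 16 of the 58 the other 3 libraries were at 0, so that a single library with reads is flagged by construction. Of these, 35 were Vgll4l replicate 2. It had 16615 genes above 0, against 13908 to 14179 in the other Vgll4l libraries, and was high in 31 genes, of which 30 were lower after Vgll4l than after Yap/Taz knockdown and tnfrsf21 higher. Among ciliary genes its normalized counts stood out for DNAH3 at 5.66, RSPH3 at 5.66, saxo2 at 8.50, b9d1 at 11.3, ift80 at 14.2, si:rp71-1p14.7 at 18.9, mks1 at 21.7, arl6 at 22.7, kif3a at 22.7, tekt4 at 28.3, cfap45 at 31.2, dyx1c1 at 37.8 and daw1 at 82.1, where the other 3 Vgll4l libraries had at most 14.7. Among the other genes they did for sod2 at 0.944, nf2a at 0.944, ankrd1a at 4.72, tead1a at 6.61, kdm2ba at 9.44, cdh11 at 10.4 and znf1014 at 11.3, and for myo3b at 12.3, ndr1 at 13.2, nr5a2 at 13.2, prss23 at 16.1, prox1a at 17.9, UBE2M at 19.8, tfdp2 at 19.8, efna3b at 20.8, angptl7 at 28.3, s1pr1 at 31.2 and tnfrsf21 at 143.

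Vgll4l replicate 2 was the low library in krt17 (3894 normalized counts, against 4154 to 4181 in the others), rpa2 (317 normalized counts, against 403 to 414 in the others) and si:ch211-199o1.2 (2737 normalized counts, against 3573 to 3704 in the others). The other Vgll4l libraries stood out in dnmt3ba (replicate 1, 567, against 626 to 628), her7 (replicate 3, 1230.2, against 1167 to 1177) and myod1 (replicate 3, 84.0, against 69.9 to 71.9). After Yap/Taz knockdown a single library held the few reads of a gene that was at 0 in the other 3, namely aplnrb at 0.798 in replicate 2, casp6 at 2.17 in replicate 3, cyr61 at 0.798 in replicate 2, dkk1b at 2.66 in replicate 1, efhb at 0.722 in replicate 3, knl1 at 1.60 in replicate 2, phlda3 at 0.730 in replicate 4, ripply1 at 0.730 in replicate 4 and unc119b at 1.46 in replicate 4. At similarly low levels fzd8b had 0.798 in Yap/Taz replicate 2 (others 3.33 to 3.65), lrit3a had 0 in Yap/Taz replicate 4 (others 0.666 to 0.798) and tbx6 had 1.46 in Yap/Taz replicate 4 (others 0.666 to 0.798). In genes with more reads bag3 had 10.7 in Yap/Taz replicate 1 (others 14.4 to 14.6), cnpy1 had 646 in Yap/Taz replicate 1 (others 683 to 689.9), daw1 had 1912 in Yap/Taz replicate 4 (others 1999.9 to 2016) and dla had 548 in Yap/Taz replicate 3 (others 577 to 578). Likewise gsc had 236 in Yap/Taz replicate 2 (others 197 to 202), hsph1 had 24.1 in Yap/Taz replicate 4 (others 18.8 to 19.3), kdm2ba had 253 in Yap/Taz replicate 3 (others 271 to 274) and yap1 had 1738 in Yap/Taz replicate 3 (others 1797 to 1802). The cause of these gaps was not tested.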

How the results depend on the processing

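The number of genes that differed between the knockdowns was 11015 and stayed within 1.5 times of that under every alternative run, from 7900 at a log2 threshold of 2 to 13793 with no fold threshold. It was 8789 with a pseudocount of 10, 11338 with edgeR and 10956 with DESeq2 on the recovered reads, and 10864 to 11033 with 1 of the 8 libraries left out. The share of these genes that were higher after Vgll4l knockdown was 47.4%, and 51.2% with TMM scaling and 51.9% with edgeR. The number of genes called alike depended more on the setting. It was 4102, moved to 7384 with a pseudocount of 10 and to 2711 with DESeq2, and was 3922 to 4555 with 1 library left out. With the mean of at least 1 asked of the 8 knockdown libraries it was 2797 of 15440 genes, and 11212 differed (72.6%). A larger pseudocount pulls low genes together by construction, while the cause of the DESeq2 value was not tested, and edgeR gives no interval. Of 177 genes named with a test none changed direction while past the threshold, and 4 changed their call under an alternative other than the fold thresholds: bmp2b (log2 fold change -0.86 with TMM and -0.88 with edgeR) and slc35d1a (-0.98 with TMM, and just under the threshold with edgeR) were lost, cftr was gained, and wwtr1 was lost with a pseudocount of 10 (-0.62).

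The replicate numbers of the titles gave no sign of pairing the libraries: the deviations of same-numbered Vgll4l and Yap/Taz libraries from their group means had correlations of 0.0059, 0.0184, 0.008 and -0.0189 over 8458 genes, and not every library correlated best with its own number. Whether libraries shared a clutch or day cannot be told from these values. With the replicate number as a block 10932 genes differed, 5187 higher and 5745 lower after Vgll4l knockdown, and no named call changed. Depth limits genes with few reads, where 1 read is worth about 1 normalized count and the low reads of Vgll4l replicate 2 set the Vgll4l mean.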

Other observations

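Germ plasm genes mark primordial germ cells and were listed as a cell type that a dissected cluster could hold. Of 11 tested 5 were lower (45.5%, against 32.9% of all genes) and 2 higher (18.2%, against 29.6%) after Vgll4l knockdown. ddx4 (ENSDARG00000014373), the vasa helicase gene, had 238, 241, 191 and 219 normalized counts in Vgll4l clusters and 588, 584, 611 and 552 in Yap/Taz clusters, with 594 to 767 in control clusters. dazl, which encodes an RNA-binding protein of germ cells, had 90.2, 101, 71.3 and 66.4 in Vgll4l clusters and 353, 329, 334 and 334 in Yap/Taz clusters, against 0 to 1.62 in control clusters. All Vgll4l libraries lay below all Yap/Taz libraries in both genes (log2 fold changes -1.40 and -2.04, limma adjusted p = 1.6e-06 and 3.7e-06). dnd1, a germ cell survival factor gene, was lower as well (13.6 ± 4.43 in Vgll4l and 97.8 ± 6.38 in Yap/Taz clusters, SD, n = 4 each). ca15b and celf1 were higher after Vgll4l knockdown (log2 fold changes 3.93 and 2.26). celf1 is expressed in many tissues. piwil1, the gene of a germ cell Argonaute protein, was at 0 in all 8 knockdown libraries and had 32.4 to 54.1 in control clusters. The list took 0.0118 to 0.0127% of the counts of a Vgll4l library, 0.0160 to 0.0169% of a Yap/Taz library and 0.0175 to 0.0201% of a control library.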
